A study of Arabidopsis thaliana with 12 samples.

Results

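Iron-sulfur (Fe-S) cluster assembly genes encode the machinery that builds Fe-S clusters and hands them to proteins, and 34 of them, chosen by locus for their known role, are described here of the 33607 genes in each deposited table. They comprise 5 genes of the plastid SUF system, 8 plastid carriers, 12 genes of the mitochondrial ISC system, 8 cytosolic CIA factors and NEET. The members that the results turn on most are SUFB (AT4G04770), SUFC (AT3G10670), SUFD (AT1G32500), ISU1 (AT4G22220), ISU2 (AT3G01020), ISU3 (AT4G04080), IBA57.1 (AT4G12130), GRXS14 (AT3G54900), HCF101 (AT3G24430) and NEET (AT5G51720). All 34 were present in all 4 tables. The plants were Arabidopsis thaliana in the Columbia-0 background, with the IMA1 open reading frame (IMA1 OE, line #7-4) or EYFP (EYFP OE, the transgenic control) behind the 35S promoter. IMA1 (AT1G47400) encodes a small peptide that takes part in iron-deficiency signalling, and EYFP is a fluorescent protein. Seedlings spent 10 days on full medium with 1.5% sucrose in continuous light, then 72 hours on fresh full medium or on medium without Fe that held 100 µM FerroZine, an Fe chelator. Polyadenylated RNA was sequenced from IMA1 OE roots on full medium, IMA1 OE roots on Fe-deficient medium and EYFP OE roots on full medium, and from rosettes of the same 3 groups, with 2 libraries a group and 12 in all. Fe-deficient EYFP OE plants were not analysed here, so in the Fe-deficient comparisons line and medium differ together. Each transgene is represented by 1 line. Nothing in the labels says that the 2 libraries of a group came from separate cultures, so p-values measure only the spread between these samples.

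Fe-S clusters are cofactors of iron and sulfide that carry electrons or hold substrates. In plants a cysteine desulfurase in plastids (NFS2) and another in mitochondria (NFS1) release sulfur from cysteine, scaffold proteins join it with iron, and carriers pass the finished cluster on. Plastid clusters serve photosynthetic electron transport, nitrogen and sulfur assimilation, mitochondrial clusters serve respiration, and the CIA pathway, which depends on mitochondria, supplies cytosolic and nuclear enzymes. The machinery is a large user of cellular iron, next to ferritin, the plastid iron store.

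Values are the authors' normalized, length-scaled signal, which has no stated unit and keeps no read depth, so the precision behind a single value is unknown. Over the tested genes, Pearson's r between the libraries of a pair was 0.971 to 0.989, a correlation across genes and not across independent replicates. A typical gene differed within a pair by a log2 value of 0.103 to 0.119 in roots and 0.158 to 0.187 in rosettes (medians of the absolute difference). IMA1 was at 322.23 to 409.95 in IMA1 OE roots and 345.57 to 482.72 in IMA1 OE rosettes, against 1.87 to 6.71 in EYFP OE roots and 2.0 to 9.03 in EYFP OE rosettes. The 5 leaf marker genes summed to 30672 to 36035 in rosette libraries and 202 to 509 in root libraries. The 5 root marker genes used summed to 85 to 187 in rosette libraries and 2367 to 4273 in root libraries, and EXPA7, COBL9 and TIP2-3 were below 0.3 in every rosette library. In the table of Fe-deficient rosettes the IMA1 OE columns carry headings that name a medium with Fe. The sample labels tie those columns to the Fe-deficient libraries and were followed here, so all values of that group are given under this doubt.

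To show what lies in front of the genes whose values stood apart below, and of 2 genes of the CIA pathway, the 150 bases upstream of the annotated gene start were read from the RefSeq assembly TAIR10.1, with all 34 loci matched by identifier. SUFB, SUFD and NEET are the members with the widest differences between lines, and IBA57.1 carried a pair of G-boxes. DRE2 and AE7 are among the 4 of 8 CIA genes with the letters TGGGCC upstream, so they do not stand for the CIA genes without them. Capitals mark the G-box CACGTG, which basic helix-loop-helix factors bind, the site II letters TGGGCC, and CACGAG, each searched on both strands.
SUFB, chr4:2429900-2430049, minus strand: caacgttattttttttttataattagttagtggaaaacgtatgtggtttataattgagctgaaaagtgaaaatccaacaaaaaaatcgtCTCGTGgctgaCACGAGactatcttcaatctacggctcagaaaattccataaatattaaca
SUFD, chr1:11752191-11752340, minus strand: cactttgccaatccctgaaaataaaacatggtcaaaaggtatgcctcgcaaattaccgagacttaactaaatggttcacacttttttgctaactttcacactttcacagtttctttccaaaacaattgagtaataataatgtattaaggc
NEET, chr5:21009197-21009346, plus strand: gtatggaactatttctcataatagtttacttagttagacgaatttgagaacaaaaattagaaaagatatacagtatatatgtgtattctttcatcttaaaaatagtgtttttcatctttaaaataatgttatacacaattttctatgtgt
IBA57.1, chr4:7263426-7263575, plus strand: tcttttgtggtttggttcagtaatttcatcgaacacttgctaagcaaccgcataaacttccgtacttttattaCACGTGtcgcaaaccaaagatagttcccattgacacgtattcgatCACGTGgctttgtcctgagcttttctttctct
DRE2, chr5:6095081-6095230, minus strand: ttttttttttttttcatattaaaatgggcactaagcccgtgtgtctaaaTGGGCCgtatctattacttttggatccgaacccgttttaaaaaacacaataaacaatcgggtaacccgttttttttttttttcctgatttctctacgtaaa
AE7, chr1:25599315-25599464, plus strand: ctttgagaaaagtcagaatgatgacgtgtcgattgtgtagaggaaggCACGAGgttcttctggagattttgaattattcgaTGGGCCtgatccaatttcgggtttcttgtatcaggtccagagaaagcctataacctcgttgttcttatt

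Over 250 bases upstream, CACGTG occurred in 3 of the 34 members (NFU1, ISU2 and IBA57.1; 8.82%), beside 6.49% of 27443 protein-coding genes. TGGGCC occurred in 8 members (23.5%), beside 13.7% of all genes, and 4 of those 8 were CIA genes (NBP35, DRE2, AE7 and MET18) of 8 CIA genes in all. CACGAG, a search added after the SUFB sequence had been read, occurred in SUFB and AE7 (5.88% of members, beside 4.16% of all genes). SUFB held it on both strands, as 18 of the 27443 promoters did (0.0656%). Since the letters were chosen from the SUFB sequence, this share does not measure how unusual SUFB is. These letters are part of an inverted repeat with arms of 8 bases, GTCTCGTG and CACGAGAC, set 5 bases apart and lying 63 to 43 bases upstream of the gene start. The letter matches are descriptions of sequence, and no binding was measured.

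In EYFP OE plants on full medium the members divided by the compartment they serve, as the plot of levels by tissue shows. All 5 SUF genes and all 8 plastid carriers were higher in rosettes than in roots, without overlap of the libraries, by a median of 1.45 (range 1.22 to 1.62) and 1.77 (range 1.21 to 3.72) on the log2(value + 1) scale. All 8 CIA genes were lower in rosettes than in roots, with a median difference of -0.55. Of the 10 ISC genes above the low-value filter, 2 were higher in rosettes (NFU5 and ATM3), 7 were lower in rosettes, and NFU4 overlapped, with a median of -0.51. The median over 21161 genes was also -0.51, so the CIA and ISC genes lay at the middle of all genes and the plastid genes far above it. Of those 21161 genes, 5310 were higher in rosettes without overlap, 13722 were higher in roots without overlap and 2129 overlapped. Most genes thus had higher values in the root table, as most CIA and ISC genes had. Root and rosette tables were normalized separately, so these levels are given without a test. For genes near the median over all genes, a difference in level cannot be told apart from the scale of the tables.

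**Figure D1:**
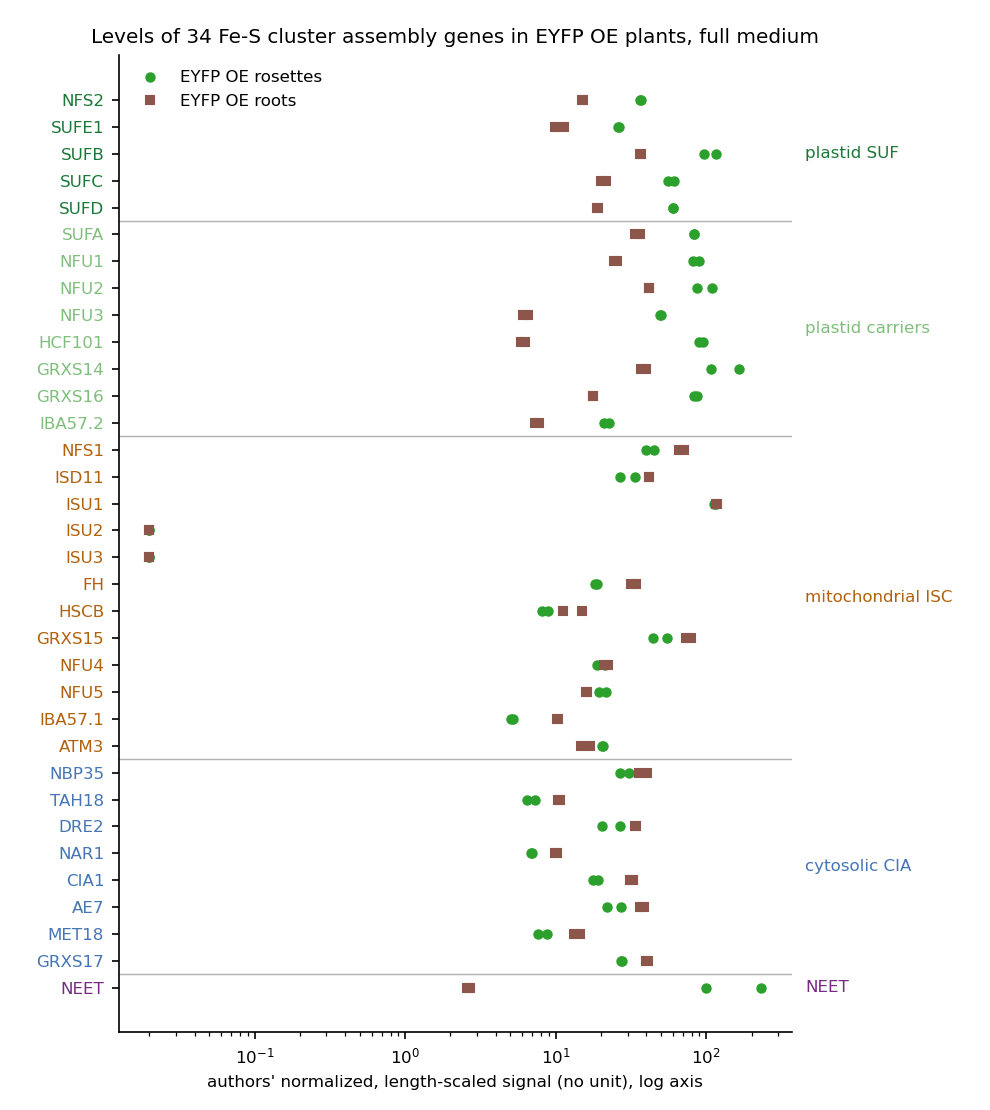
Levels of the 34 genes in the 2 rosette libraries (green circles) and the 2 root libraries (brown squares) of EYFP OE plants, on a log axis in the authors' normalized signal. Plastid genes and NEET sit to the right in rosettes, CIA genes sit to the right in roots, and ISU2 and ISU3 are listed at 0.02.

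HCF101, a carrier needed for photosystem I assembly, had the widest plastid difference, with signals of 88.98 and 95.85 in EYFP OE rosettes, against 6.22 and 5.92 in EYFP OE roots. NFU3, another carrier for photosystem I, had signals of 50.17 and 49.62 in rosettes, against 6.10 and 6.58 in roots. NEET, a small protein with a 2Fe-2S cluster, stood further apart still, with 100.28 and 232.41 in rosettes, against 2.58 and 2.71 in roots. Among the mitochondrial scaffolds, ISU1 had nearly equal signals of 116.42 and 112.62 in rosettes, against 116.60 and 118.53 in roots. Its copies ISU2 and ISU3 were listed at the floor of 0.02 in every library except for 1 value of 0.11 (ISU2, Fe-deficient IMA1 OE rosettes), and both fell below the filter, so that 32 of the 34 members were tested. How reads shared by near-identical copies were counted is not given in the sources used here.

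No member passed the test in any comparison of IMA1 OE with EYFP OE plants. With limma over all tested genes and a Benjamini-Hochberg adjusted p under 0.05, 0 of 32 members were called in roots on full medium (background 0.0355% of 19741 genes), 0 in Fe-deficient roots (0.92% of 19673 genes), 0 in rosettes on full medium (0.0107% of 18731 genes) and 0 in Fe-deficient rosettes (0.00535% of 18691 genes). At an unadjusted p under 0.05 the members counted 0 in roots on full medium (background 4.22%), 3 in Fe-deficient roots (SUFB, ISU1 and NEET; 9.14%), 0 in rosettes on full medium (5.43%) and 1 in Fe-deficient rosettes (SUFD; 5.17%). With backgrounds this low and 2 libraries a group, a count of 0 called members does not show that the genes were alike.

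The differences themselves were small. In all 4 comparisons 29 of the 32 tested members lay within 0.25 of 0 on the log2(value + 1) scale, and the exceptions were SUFB, SUFD and NEET. In each comparison 29 to 31 members lay within that bound, beside 89.7% of all tested genes in roots on full medium, 85.4% in Fe-deficient roots, 79.5% in rosettes on full medium and 80.3% in Fe-deficient rosettes. The median over the members was 0.01 in both root comparisons, -0.07 in rosettes on full medium and -0.11 in Fe-deficient rosettes, beside -0.01, -0.02, -0.03 and -0.03 over all tested genes in the same order. The half-width of a member's 95% interval, which is not adjusted for the number of genes, had a median of 0.22 and 0.21 in roots and 0.36 and 0.32 in rosettes. Much larger differences could go uncalled at the adjusted threshold. The overexpressed IMA1 itself, at a log2 difference of 6.34 in roots on full medium, had an adjusted p of 0.0764 by limma. It passed in Fe-deficient roots (adjusted p = 0.00766 by limma). In each rosette comparison 0 genes were called higher, so IMA1 was not called there.

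**Figure D2:**
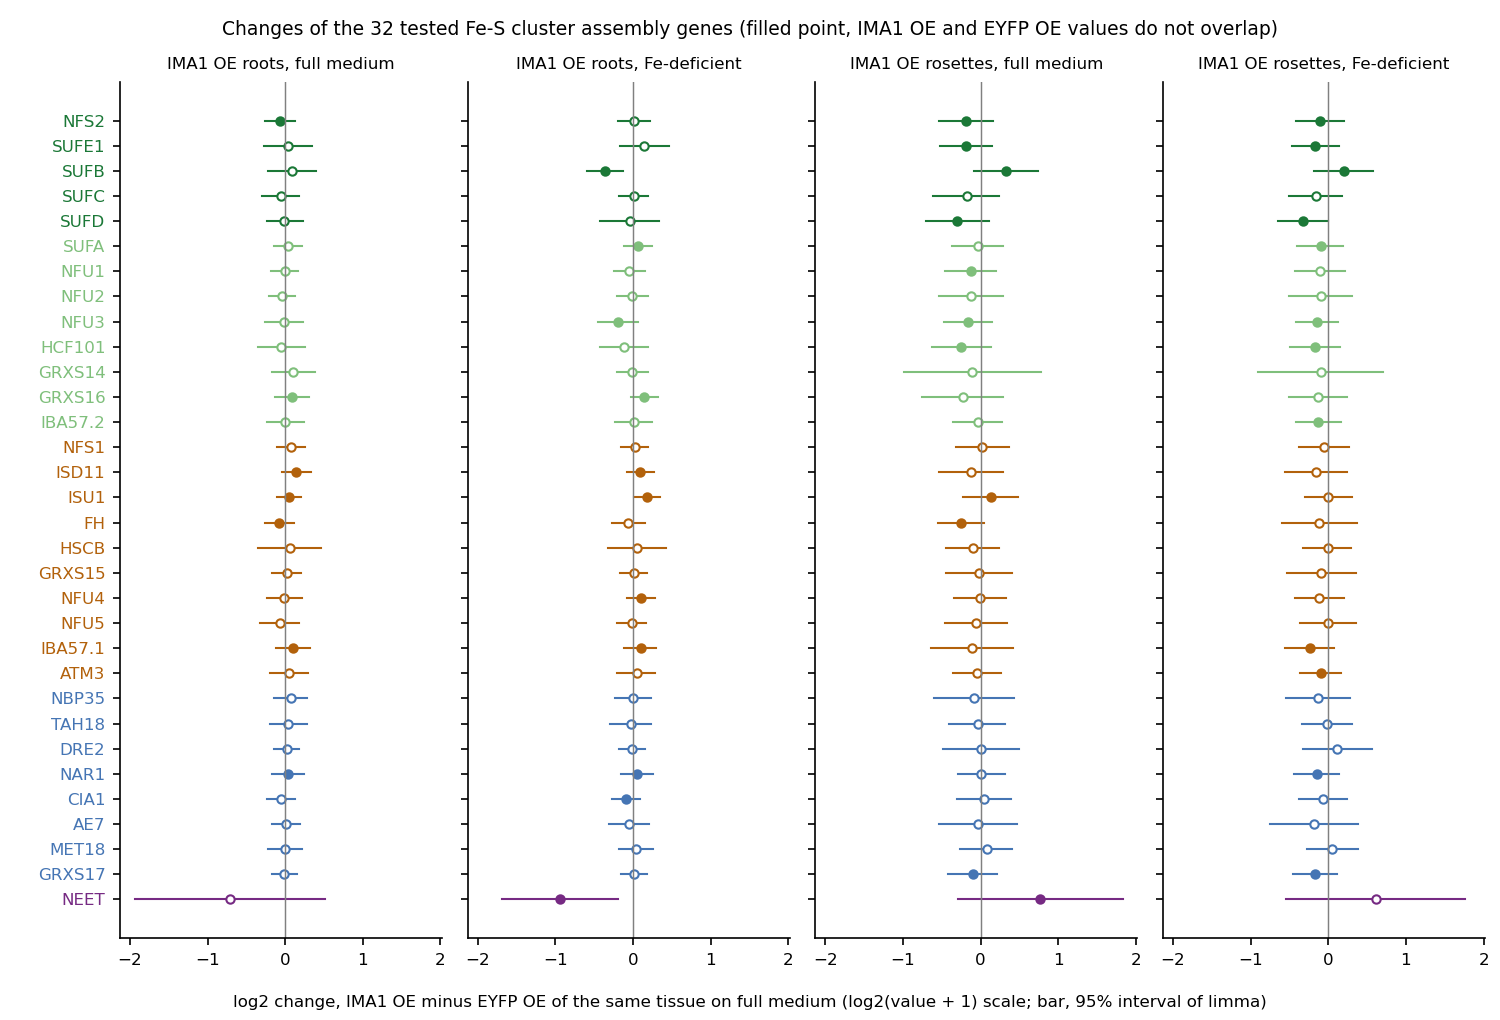
Log2 change of the 32 tested genes in IMA1 OE relative to EYFP OE plants of the same tissue, with the 95% interval of limma, in roots and rosettes on full and Fe-deficient medium. Most points lie within 0.25 of 0, while SUFB, SUFD and NEET lie outside it, and filled points are genes whose IMA1 OE and EYFP OE values do not overlap.

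More members lay below than above EYFP OE in rosettes, by a count that moved with single libraries. On full medium 24 of 32 tested members (75.0%) had a change below 0, beside 58.5% of all tested genes, and in Fe-deficient rosettes 27 of 32 (84.4%) did, beside 56.8%. In a check chosen after the data were seen, the count on full medium was 15 without IMA1 OE replicate 1 (46.9%), 16 without EYFP OE replicate 2 (50.0%), 25 without IMA1 OE replicate 2 and 27 without EYFP OE replicate 1. In Fe-deficient rosettes it was 20 without IMA1 OE replicate 1 (62.5%), 22 without EYFP OE replicate 2, 26 without IMA1 OE replicate 2 and 27 without EYFP OE replicate 1. The share of all tested genes lay between 53.4% and 57.4% in these settings. The median over the members moved likewise, to 0.01 on full medium without IMA1 OE replicate 1 and 0.00 without EYFP OE replicate 2, and to -0.14 and -0.13 without the other library of each line. In Fe-deficient rosettes it was -0.04 without IMA1 OE replicate 1, -0.07 without EYFP OE replicate 2, -0.15 without EYFP OE replicate 1 and -0.16 without IMA1 OE replicate 2. Of the 13 plastid SUF and carrier genes 12 were lower in both comparisons, with SUFB the exception, and the median of the 8 carriers was -0.12 in each. Counted by libraries that do not overlap, 3 members were above EYFP OE in rosettes on full medium (9.38%; background 13.1%) and 8 below (25.0%; background 18.5%). In Fe-deficient rosettes 1 was above (background 13.8%) and 11 below (34.4%; background 19.5%). Both rosette comparisons use the same EYFP OE libraries, so the second is no repeat of the first. In roots on full medium 5 members were above without overlap (15.6%; background 13.8%) and 2 below (6.25%; background 16.2%). In Fe-deficient roots 7 were above (21.9%; background 17.8%) and 4 below (12.5%; background 21.6%), so that in both root comparisons the share above was a little over its background and the share below was under it.

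SUFB, SUFC and SUFD form the scaffold complex on which plastid clusters are built, with SUFC as its ATPase. In rosettes SUFB was the member of the complex that stood above EYFP OE. On full medium its signal was 127.10 and 139.63 in IMA1 OE rosettes, against 95.92 and 116.73 in EYFP OE rosettes, a log2 difference of 0.33 (SE 0.16, adjusted p = 1 by limma). In Fe-deficient IMA1 OE rosettes it was 125.21 and 116.39, against 95.59 and 116.01 in EYFP OE rosettes, a difference of 0.20 (SE 0.145, adjusted p = 0.995 by limma). Both IMA1 OE libraries were above both EYFP OE libraries each time, but on Fe-deficient medium by less than 1 signal unit for the closest pair, and EYFP OE replicate 1 was the low library. Without it the difference was 0.19 on full medium and 0.06 on Fe-deficient medium.

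SUFD ran the other way in the same rosettes. On full medium it was at 43.56 and 54.43 in IMA1 OE rosettes, against 60.21 and 60.00 in EYFP OE rosettes, a log2 difference of -0.30 (SE 0.156, adjusted p = 1 by limma). Fe-deficient IMA1 OE rosettes had 44.18 and 50.99, against 59.85 and 59.63 in EYFP OE rosettes, a difference of -0.33 (SE 0.122, unadjusted p = 0.0487, adjusted p = 0.961 by limma). Both IMA1 OE libraries lay below both EYFP OE libraries in each table, and IMA1 OE replicate 1 was the lower. Without it the SUFD difference was -0.14 on full medium and -0.22 on Fe-deficient medium, and without IMA1 OE replicate 2 it was -0.46 and -0.43. SUFC had signals of 45.76 and 57.45 in IMA1 OE rosettes on full medium, against 55.46 and 61.34 in EYFP OE rosettes, and 48.33 and 55.23 in Fe-deficient IMA1 OE rosettes, against 55.17 and 60.84, so that its groups overlapped.

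The balance between the subunits in rosettes was also taken as a ratio within each library. SUFB was 2.92 and 2.57 times SUFD in IMA1 OE rosettes on full medium, against 1.59 and 1.95 times in EYFP OE rosettes. It was 2.83 and 2.28 times SUFD in Fe-deficient IMA1 OE rosettes, against 1.60 and 1.95 times in EYFP OE rosettes. The SUFB to SUFC ratio was 2.78 and 2.43 in IMA1 OE rosettes on full medium, against 1.73 and 1.90 in EYFP OE rosettes, and 2.59 and 2.11 in Fe-deficient IMA1 OE rosettes, against 1.73 and 1.91 in EYFP OE rosettes. The SUFB to SUFD ratios had to lie apart, since SUFB was above and SUFD below EYFP OE without overlap, so they restate those values. The SUFB to SUFC ratios did not overlap either. Both media share the EYFP OE libraries, so the second is no repeat of the first. The ratios were looked at after the values of the subunits were known, so they are a description with no test.

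In roots the SUF balance was close to 2 in both lines on full medium, and lower in Fe-deficient IMA1 OE roots. SUFB had signals of 34.86 and 43.72 in IMA1 OE roots on full medium, against 36.09 and 37.13 in EYFP OE roots, and these overlapped. In Fe-deficient IMA1 OE roots it had 26.20 and 30.36, against 35.89 and 36.95 in EYFP OE roots, a log2 difference of -0.36 (SE 0.09, 95% interval -0.59 to -0.13, adjusted p = 0.286 by limma), with both IMA1 OE libraries below both EYFP OE libraries. Without IMA1 OE replicate 1 the difference was -0.25, and without IMA1 OE replicate 2 it was -0.46. SUFC and SUFD overlapped between the lines in both root comparisons, with signals of 15.56 to 21.05 in Fe-deficient IMA1 OE roots and 18.64 to 21.16 in EYFP OE roots. The SUFB to SUFD ratio was 1.98 and 2.17 in IMA1 OE roots on full medium, against 1.92 and 1.95 in EYFP OE roots, and 1.68 and 1.44 in Fe-deficient IMA1 OE roots, against 1.93 and 1.97 in EYFP OE roots.

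The sign of the SUFB difference was thus negative in roots and positive in rosettes on Fe-deficient medium. SUFB was 1 of 4 of the 32 tested members that stood apart from EYFP OE without overlap in opposite directions in the tissues on that medium, beside 4.33% of the 17263 genes tested in both. The interaction term of limma put the root minus rosette difference at -0.55 (SE 0.168, 95% interval -0.95 to -0.15), with an adjusted p of 0.492, and on full medium at -0.24 (SE 0.2, adjusted p = 1). In these tests 0 of 32 members passed the threshold on full medium (background 0.0189% of 21161 genes) and 0 on Fe-deficient medium (0.313% of 21101 genes). At an unadjusted p under 0.05 there were 0 members on full medium (background 4.32%) and 3 on Fe-deficient medium, SUFB, IBA57.1 and NEET (background 6.76%). SUFB overlaps AT4G04760 on the opposite strand in the TAIR10.1 annotation, as 13 of the 34 members overlap some gene, and whether reads were counted by strand is not given in the sources used here. AT4G04760 had signals of 0.54 to 2.56 in all libraries, far below SUFB.

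**Figure D3:**
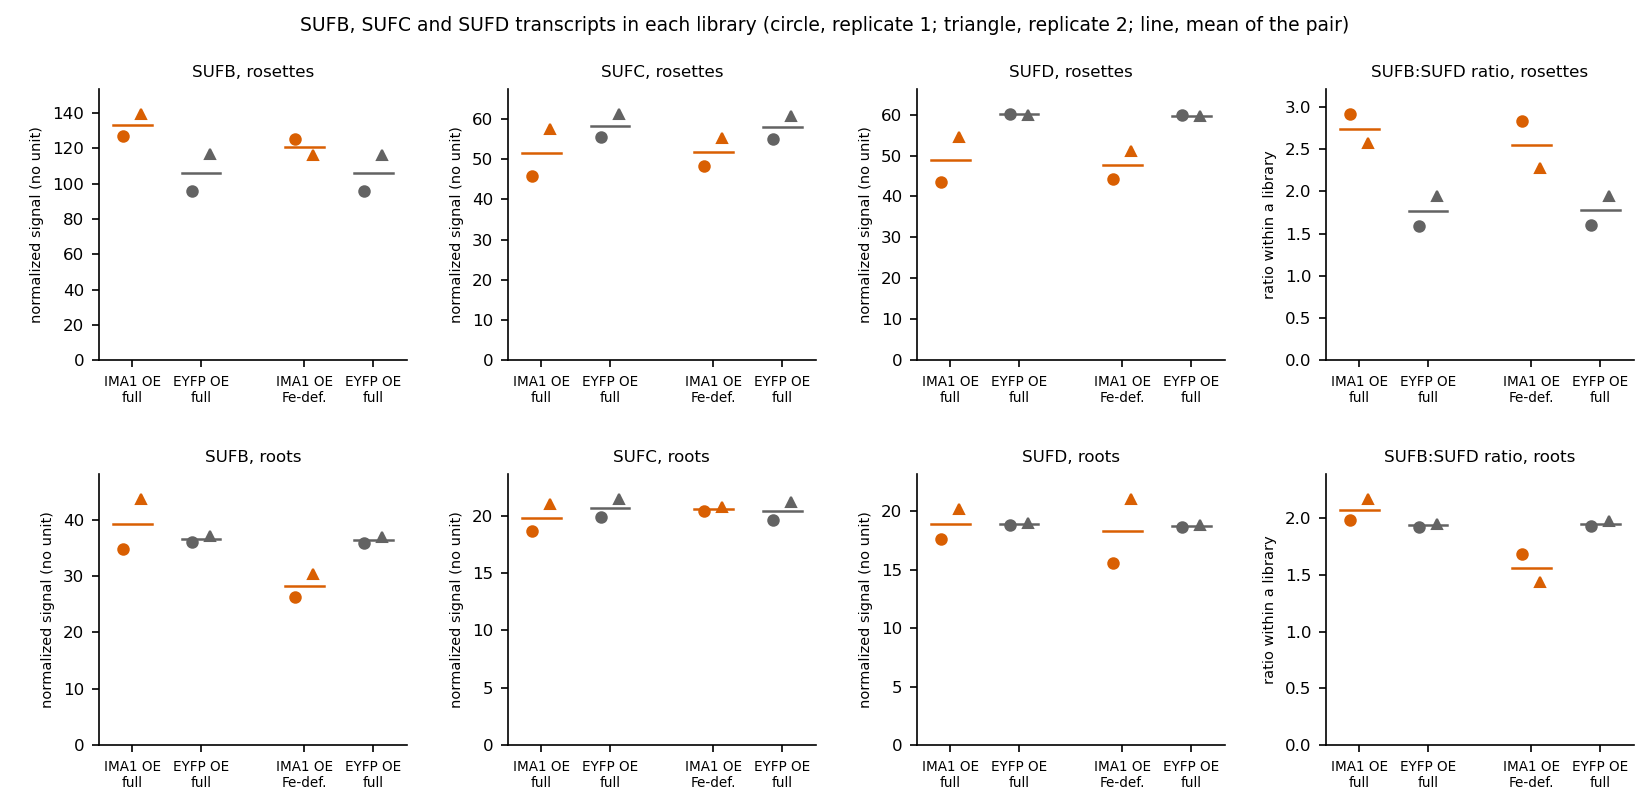
Signal of SUFB, SUFC and SUFD and the SUFB to SUFD ratio in each library of rosettes (top) and roots (bottom), with IMA1 OE left of the EYFP OE libraries of the same table and a line at the mean of each pair. The SUFB to SUFD ratio lies at 2.28 to 2.92 in IMA1 OE rosettes and 1.59 to 1.95 in EYFP OE rosettes, and at 1.44 to 1.68 in Fe-deficient IMA1 OE roots.

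The sulfur donors of the plastid system, the desulfurase NFS2 and its activator SUFE1, were lower in IMA1 OE rosettes in both comparisons without overlap. NFS2 was at 29.64 and 34.42 in IMA1 OE rosettes on full medium, against 36.47 and 36.75 in EYFP OE rosettes, a log2 difference of -0.19 (SE 0.133). SUFE1 was at 21.28 and 24.31, against 25.85 and 26.22, a log2 difference of -0.19 (SE 0.128). In Fe-deficient IMA1 OE rosettes SUFE1 was at 21.40 and 24.29, against 25.52 and 25.90 in EYFP OE rosettes, a difference of -0.17 (SE 0.116). The intervals of all 3 differences include 0. In roots NFS2 was at 14.67 and 13.95 in IMA1 OE on full medium, against 14.87 and 15.21 in EYFP OE, a log2 difference of -0.07 (SE 0.075) without overlap. The other root values of the pair overlapped. NFS2 was at 15.63 and 14.33 in Fe-deficient IMA1 OE roots, against 14.62 and 14.99 in EYFP OE roots, a log2 difference of 0.01. SUFE1 was at 9.94 and 11.78 in IMA1 OE roots on full medium, against 9.87 and 11.27 in EYFP OE roots, and at 10.45 and 12.70 in Fe-deficient IMA1 OE roots, against 9.69 and 11.03, with log2 differences of 0.03 and 0.14.

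Among the plastid carriers HCF101 differed most in rosettes without overlap. It was at 71.76 and 84.07 in IMA1 OE rosettes on full medium, against 88.98 and 95.85 in EYFP OE rosettes, a log2 difference of -0.25 (SE 0.146, 95% interval -0.62 to 0.13). Fe-deficient IMA1 OE rosettes had 77.51 and 85.83, against 88.21 and 95.33 in EYFP OE rosettes, a difference of -0.17 (SE 0.121). Without IMA1 OE replicate 1 the difference was -0.13 on full medium and -0.09 on Fe-deficient medium, and without IMA1 OE replicate 2 it was -0.36 and -0.24. NFU3 was lower without overlap in 3 comparisons, with 5.43 and 5.09 in Fe-deficient IMA1 OE roots, against 5.92 and 6.40 in EYFP OE roots, a log2 difference of -0.19 (SE 0.101, 95% interval -0.45 to 0.06). The others were both rosette comparisons, which share the EYFP OE libraries, and the share of all genes with this pattern was not counted. The monothiol glutaredoxin GRXS16, which carries 2Fe-2S clusters in plastids, was higher in roots, with 19.80 and 17.88 in IMA1 OE on full medium, against 17.64 and 17.69 in EYFP OE, and with 19.14 and 19.36 in Fe-deficient IMA1 OE, against 17.29 and 17.34 in EYFP OE (log2 difference 0.14, SE 0.069, 95% interval -0.03 to 0.32).

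GRXS14, the other plastid glutaredoxin, varied more between the libraries of a group than between the lines. It was at 94.04 and 161.59 in IMA1 OE rosettes on full medium, 99.05 and 152.80 in Fe-deficient IMA1 OE rosettes, and 107.41 and 164.06 in EYFP OE rosettes, the EYFP OE values being those of the full-medium table. In each group the library numbered 2 was the high one, and the 95% interval of the line difference on full medium ran from -0.99 to 0.78. SUFA, NFU1, NFU2 and IBA57.2 differed between the lines by 0.13 or less on the log2 scale in every comparison.

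The mitochondrial ISC genes lay close to EYFP OE, with ISU1 furthest from it in Fe-deficient roots. ISU1, the scaffold on which mitochondrial clusters are built, had signals of 138.69 and 126.50 in Fe-deficient IMA1 OE roots, against 116.05 and 118.05 in EYFP OE roots, a log2 difference of 0.18 (SE 0.067, 95% interval 0.01 to 0.35, unadjusted p = 0.0447, adjusted p = 0.524 by limma). On full medium it had 123.03 and 120.70 in IMA1 OE roots, against 116.60 and 118.53 in EYFP OE roots, a difference of 0.05 (SE 0.057). In rosettes it had 132.90 and 117.70 in IMA1 OE on full medium, against 116.42 and 112.62 in EYFP OE, and 118.04 and 110.51 in Fe-deficient IMA1 OE, against 116.24 and 112.42 in EYFP OE. ISU1 was therefore above EYFP OE without overlap in 3 of the 4 comparisons and overlapped in Fe-deficient rosettes. Both root comparisons use the same EYFP OE libraries, and the share of all genes with this pattern was not counted.

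ISD11, the partner that stabilises NFS1, was at 44.17 and 48.07 in IMA1 OE roots on full medium, against 41.75 and 41.43 in EYFP OE roots, a log2 difference of 0.14 (SE 0.071), and at 45.44 and 42.17 in Fe-deficient IMA1 OE roots, against 41.14 and 40.77. NFS1 itself overlapped in all 4 comparisons. FH, frataxin, which assists the ISC scaffold, was at 31.13 and 31.34 in IMA1 OE roots on full medium, against 34.32 and 31.76 in EYFP OE roots, and at 14.99 and 15.80 in IMA1 OE rosettes on full medium, against 18.73 and 18.14 in EYFP OE rosettes, a log2 difference of -0.25 (SE 0.115, 95% interval -0.55 to 0.05). In Fe-deficient rosettes FH overlapped. The carrier NFU4 was at 22.84 and 22.87 in Fe-deficient IMA1 OE roots, against 20.50 and 21.90 in EYFP OE roots, a log2 difference of 0.10 (SE 0.072).

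IBA57.1, a member of the IBA57 family that acts late in 4Fe-4S cluster formation, went in opposite directions in the tissues, at low signals. It was at 10.62 and 11.54 in IMA1 OE roots on full medium, against 10.33 and 10.20 in EYFP OE roots, and at 10.64 and 11.03 in Fe-deficient IMA1 OE roots, against 10.11 and 9.99 in EYFP OE roots. In Fe-deficient IMA1 OE rosettes it was at 4.14 and 4.01, against 5.13 and 4.90 in EYFP OE rosettes, a log2 difference of -0.24 (SE 0.12). The root minus rosette difference on Fe-deficient medium was 0.34 (SE 0.127, 95% interval 0.04 to 0.65, adjusted p = 0.636 by limma). On full medium its rosette libraries overlapped, with 3.75 and 5.77 in IMA1 OE and 5.23 and 5.01 in EYFP OE. HSCB, GRXS15 and NFU5 overlapped in all 4 comparisons, and ATM3, the inner-membrane ABC transporter that links mitochondria to the CIA pathway, was lower without overlap in Fe-deficient rosettes only, by -0.10 (SE 0.101).

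The cytosolic CIA genes showed the smallest spread in roots. Their log2 differences lay between -0.05 and 0.07 in roots on full medium, between -0.09 and 0.05 in Fe-deficient roots, between -0.10 and 0.08 in rosettes on full medium and between -0.18 and 0.11 in Fe-deficient rosettes. GRXS17, the cytosolic monothiol glutaredoxin, was at 23.16 and 24.97 in Fe-deficient IMA1 OE rosettes, against 27.37 and 26.95 in EYFP OE rosettes, a log2 difference of -0.17 (SE 0.106, 95% interval -0.45 to 0.11). CIA1, a subunit of the complex that targets clusters to their clients, was at 28.66 and 30.61 in Fe-deficient IMA1 OE roots, against 30.89 and 32.20 in EYFP OE roots, a difference of -0.09 (SE 0.071). NAR1, an iron-only hydrogenase-like carrier, was at 10.46 and 10.19 in IMA1 OE roots on full medium, against 9.95 and 10.16 in EYFP OE roots, a difference of 0.03 (SE 0.079). The scaffold NBP35, the electron donors TAH18 and DRE2, and the targeting subunits AE7 and MET18 overlapped in all 4 comparisons.

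NEET had the widest differences of all members, and they depended on EYFP OE replicate 1 in rosettes and on IMA1 OE replicate 1 in roots on full medium. In rosettes on full medium its signal was 255.45 and 267.61 in IMA1 OE, against 100.28 and 232.41 in EYFP OE, a log2 difference of 0.77 (SE 0.409, 95% interval -0.29 to 1.83, adjusted p = 1 by limma). EYFP OE replicate 1 was the low library, and the difference was 0.17 without it and 1.37 without EYFP OE replicate 2. In Fe-deficient IMA1 OE rosettes the signal was 267.10 and 201.75, against 99.37 and 230.87 in EYFP OE rosettes, which overlap, with a difference of 0.61 (SE 0.436, adjusted p = 0.995 by limma), of 0.01 without EYFP OE replicate 1 and of 1.22 without EYFP OE replicate 2. In the authors' deposited table the Z-test p of NEET is 0.00 in both rosette comparisons, with log2 fold changes of 0.65 and 0.51, where 1.18% of genes on full medium and 0.949% on Fe-deficient medium have a p under 0.05 in the authors' deposited tables. No other member has such a p in the authors' deposited tables.

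The ferritins were low in the same EYFP OE library. FER1, the main leaf ferritin, had signals of 1265.33 and 994.46 in IMA1 OE rosettes on full medium, against 59.38 and 279.01 in EYFP OE rosettes. It had 249.14 and 124.33 in Fe-deficient IMA1 OE rosettes, against 58.90 and 280.55 in EYFP OE rosettes in the same table. FER4 had 175.35 and 178.74 in IMA1 OE rosettes on full medium, against 47.10 and 92.70 in EYFP OE rosettes, and FER3 had 202.36 and 215.11, against 70.87 and 87.07. EYFP OE replicate 1 was thus the lower of the pair for NEET and for these 3 ferritins. Unlike NEET, the ferritins on full medium were also well above EYFP OE replicate 2. The part of this library in the NEET difference shows in the values without it above, and what set the library apart was not tested.

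In roots NEET was near the low-value filter. It was at 0.39 and 1.47 in Fe-deficient IMA1 OE roots, against 2.49 and 2.64 in EYFP OE roots, a log2 difference of -0.94 (SE 0.293, 95% interval -1.69 to -0.19, adjusted p = 0.407 by limma), and both IMA1 OE libraries were below both EYFP OE libraries. On full medium it was at 0.37 and 2.6 in IMA1 OE roots, against 2.58 and 2.71 in EYFP OE roots, which overlap. The difference on full medium was -0.71 (SE 0.47), and -0.02 without IMA1 OE replicate 1. In Fe-deficient roots the difference kept its sign, at -0.53 without IMA1 OE replicate 1 and -1.36 without IMA1 OE replicate 2. There NEET passed the filter through the EYFP OE libraries and 1 IMA1 OE library.

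The summed level of the leaf markers was lower in IMA1 OE roots on both media. NEET and SUFB were lower without overlap on Fe-deficient medium only. The 5 leaf markers summed to 202 and 300 in Fe-deficient IMA1 OE roots, against 509 and 427 in EYFP OE roots, and to 230 and 350 in IMA1 OE roots on full medium, against 507 and 426 in EYFP OE roots. RBCS1A, LHCB1.3 and RCA, 3 of the 5, were lower in IMA1 OE roots without overlap in both tables, RBCS1B overlapped, and CA1 was at 1.0 or less in every root library. RBCS1A was at 55.43 and 97.97 in Fe-deficient IMA1 OE roots, against 135.12 and 135.89 in EYFP OE roots, with replicate 1 the lowest, as it was for NEET and SUFB. The summed level of the root markers was higher in IMA1 OE roots, where the 5 summed to 3072 and 4273 on Fe-deficient medium, against 2448 and 2417 in EYFP OE roots, and to 3250 and 4238 on full medium, against 2397 and 2367 in EYFP OE roots. PYK10, a root beta-glucosidase, made up most of these sums, with 2845.90 and 4113.01 in Fe-deficient IMA1 OE roots, against 2254.44 and 2254.44 in EYFP OE roots (log2 difference 0.60), and a log2 difference of 0.68 on full medium. CASP1, EXPA7 and COBL9, markers of the endodermis and of root hairs, differed by -0.00, 0.07 and 0.05 on Fe-deficient medium and by 0.02, -0.22 and -0.10 on full medium. TIP2-3 varied widely within each pair. It was at 97.85 and 46.26 in Fe-deficient IMA1 OE roots, against 75.13 and 43.55 in EYFP OE roots. On full medium it was at 88.73 and 37.92 in IMA1 OE roots, against 75.45 and 43.96 in EYFP OE roots, and its groups overlapped on both media. The part of leaf-type or root-type transcripts in these root differences was not tested, and in whole roots fewer cells of a type and less RNA per cell cannot be told apart. The root minus rosette difference for NEET was -1.56 on Fe-deficient medium (SE 0.592, 95% interval -2.96 to -0.15, adjusted p = 0.659 by limma) and -0.95 without EYFP OE rosette replicate 1. On full medium it was -1.49 (SE 0.715, adjusted p = 1).

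**Figure D4:**
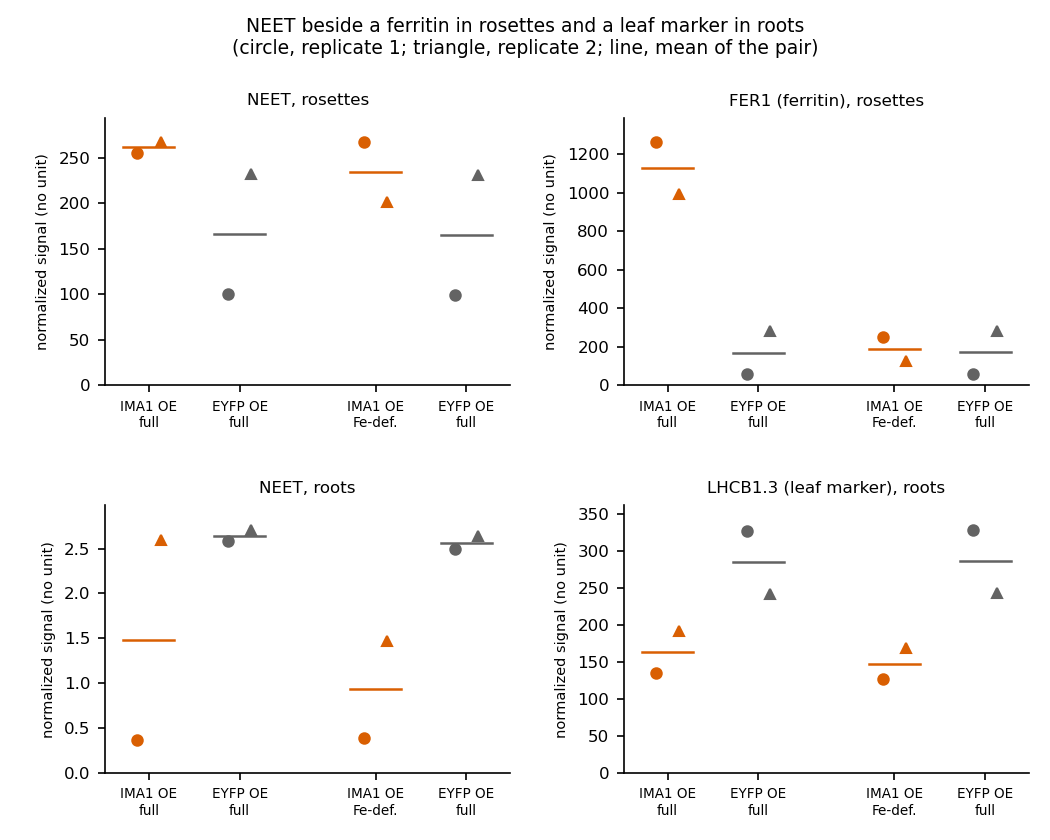
Signal of NEET in rosettes and roots, of the ferritin FER1 in rosettes and of the leaf marker LHCB1.3 in roots, per library, with IMA1 OE left of the EYFP OE libraries of the same table and a line at the mean of each pair. EYFP OE replicate 1 (circle) is the low rosette library for NEET and FER1, and IMA1 OE replicate 1 is the low root library for NEET and LHCB1.3.

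Within IMA1 OE the members differed little between the media. Fe-deficient minus full medium, as the difference of the 2 changes that share the EYFP OE libraries, had a median over the members of -0.01 in roots (range -0.45 to 0.13) and -0.03 in rosettes (range -0.16 to 0.13), beside -0.01 and 0.00 over all genes. The lower end in roots was SUFB, at -0.45, with 26.20 and 30.36 in Fe-deficient IMA1 OE roots, against 34.86 and 43.72 in IMA1 OE roots on full medium. The EYFP OE libraries of both tables, which are the same libraries, gave 35.89 and 36.95 in the one table and 36.09 and 37.13 in the other, so that the scale of the tables moved SUFB little. FER1 differed far more in rosettes, by the values given above. The tables were normalized separately and no test was made.

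Of 17 further genes of the pathway, 15 were tested and 0 passed the threshold in any comparison. SUFE2 was the 1 that stood above EYFP OE without overlap in all 4. Each pair of EYFP OE libraries served for both media, so these are not 4 independent repeats. The share of all genes with this pattern was not counted. Without overlap, 2 of the 15 were above and 3 below in roots on full medium, and 1 above and 0 below in Fe-deficient roots. In rosettes 3 were above and 1 below on full medium, and 1 above and 4 below on Fe-deficient medium. The backgrounds are those given above for the members. SUFE2, another activator of NFS2, had signals of 10.23 and 5.20 in IMA1 OE roots on full medium, against 4.39 and 3.26 in EYFP OE roots, and 8.88 and 6.34 in Fe-deficient IMA1 OE roots, against 4.25 and 3.14 in EYFP OE roots (log2 difference 0.87, adjusted p = 0.227 by limma). On full medium IMA1 OE rosettes had 5.66 and 9.80, against 2.90 and 3.25 in EYFP OE rosettes (log2 difference 1.06, adjusted p = 0.516 by limma), and in Fe-deficient IMA1 OE rosettes 5.33 and 8.34, against 2.85 and 3.21 in EYFP OE rosettes (log2 difference 0.93, adjusted p = 0.753 by limma). SUFE1, which has the same role, was not above EYFP OE without overlap in any comparison. Its signals were higher than those of SUFE2 except in IMA1 OE root replicate 1 on full medium (9.94, against 10.23 for SUFE2). ERV1, a mitochondrial sulfhydryl oxidase, was at 6.24 and 6.49 in Fe-deficient IMA1 OE rosettes, against 8.12 and 9.71 in EYFP OE rosettes (log2 difference -0.42, adjusted p = 0.891 by limma). BOLA2, a partner of glutaredoxins, was at 44.05 and 37.62 in IMA1 OE roots on full medium, against 46.90 and 46.90 in EYFP OE roots (log2 difference -0.20).

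Of 32 proteins that receive Fe-S clusters, all were tested and 0 passed the threshold. In Fe-deficient roots 24 of 32 were lower than EYFP OE (background 55.2%), 15 of them without overlap (background 21.6%) and 0 were higher without overlap (background 17.8%), with a median of -0.08 beside -0.02 over all genes. PETC, the Rieske protein of the cytochrome b6f complex, was at 11.92 and 17.26 in Fe-deficient IMA1 OE roots, against 20.73 and 23.15 in EYFP OE roots (log2 difference -0.58, SE 0.177, adjusted p = 0.402 by limma). THIC, the plastid enzyme of thiamine synthesis, was at 4.81 and 7.77, against 8.83 and 9.57 (log2 difference -0.51, adjusted p = 0.559 by limma). IMA1 OE replicate 1, the library in which the leaf markers were lowest, was the lower IMA1 OE library for 12 of the 15, PETC and THIC among them. For SDH2-2, SIR and GLT1 replicate 2 was the lower. The same share over all genes lower without overlap was not counted, so the 12 of 15 cannot be read as particular to these genes. The nitrite reductase NIR1, given here after its values were seen, was at 242.66 and 281.66 in Fe-deficient IMA1 OE roots, against 342.22 and 371.83 in EYFP OE roots (log2 difference -0.45, SE 0.092, adjusted p = 0.184 by limma). The glutamate synthase GLT1, also given after its values were seen, was at 194.09 and 190.51, against 246.81 and 221.53 (log2 difference -0.28, adjusted p = 0.287 by limma). The part of leaf-type transcripts in these differences was not tested. In rosettes on full medium 23 of 32 were higher, where 58.5% of all tested genes were lower, 7 of them without overlap (background 13.1%) and 4 lower without overlap (background 18.5%). In Fe-deficient rosettes 20 of 32 were higher, where 56.8% of all tested genes were lower, 3 of them without overlap (background 13.8%) and 4 lower without overlap (background 19.5%). The values that follow are of rosettes on full medium. APR3, a plastid reductase of sulfate assimilation, was at 83.57 and 96.01 in IMA1 OE, against 73.95 and 38.90 in EYFP OE (log2 difference 0.73, SE 0.322, adjusted p = 0.978 by limma). The aconitase ACO3 was at 108.51 and 96.30, against 88.28 and 70.84 (log2 difference 0.37). ROS1, a DNA glycosylase that removes methylated cytosine, was at 12.50 and 10.30 in IMA1 OE rosettes on full medium, against 16.35 and 14.08 in EYFP OE (log2 difference -0.39). The biotin synthase BIO2 was at 27.36 and 26.65 in the same rosettes, against 36.49 and 30.07 (log2 difference -0.29).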

How the data were processed

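RNA from 12 samples was analysed in 4 deposited tables, each with 2 IMA1 OE and 2 EYFP OE libraries of a tissue, 33607 genes and 4 rows for T-DNA constructs, which were left out. The authors deposited a normalized signal per gene, called TMM in the table names, with no unit, equalised between libraries and scaled to gene length (genes without reads share a floor that falls with length). Per the file headers the authors also deposited a Z-test p-value and a log2 fold change per gene. The submitters' processing notes name bcl2fastq 1.8.4, Trimmomatic 0.35, Bowtie2 2.0.6, edgeR 3.12.1, limma 3.26.9 and the build TAIR10, with no roles. Annotation and counting are not given in the sources used here. Read depth is unknown. Libraries were made with a stranded kit, per the labels' protocols.

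Columns were matched to samples by heading and label, and 0 per-sample columns were unused. Genes that reached a value of 1 in 2 or more of the 4 libraries were tested on log2(value + 1), which understates changes of low genes, with limma 3.58.1 in R 4.3.3 (eBayes with intensity trend, two-sided, Benjamini-Hochberg adjustment, threshold 0.05), within a table, and for tissue differences with an interaction term over 8 columns. The fit was tested on simulated data. Alternatives were a pseudocount of 0.1, no filter, no trend, median centring, a replicate block and leaving out each library. Python 3.11.15 read promoters from RefSeq TAIR10.1. The members, the lists and the alternatives were chosen with earlier results of these data known. Members given in full are SUFB, SUFC, SUFD, ISU1 to ISU3, NEET and, per comparison, the 5 largest differences in each direction without overlap. For other lists the largest 2 were used, of which some are named. The member positions are those of TAIR10.1, since the tables carry none. A further root marker is not reported here.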

Additional observations from a re-analysis of the deposited data

Results flagged for a closer look

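Of the 32 tested members, 4 lay above EYFP OE in both Fe-deficient IMA1 OE root libraries and below it in both Fe-deficient IMA1 OE rosette libraries, or the reverse, a pattern that 4.33% of the 17263 genes tested in both tissues share. SUFB differed by -0.55 between the tissues (root minus rosette log2 difference; -0.36 in roots and 0.20 in rosettes, adjusted p = 0.492 by limma's interaction term). IBA57.1 differed by 0.34 (0.10 in roots and -0.24 in rosettes, adjusted p = 0.636 by limma). NAR1 differed by 0.20 (0.05 in roots and -0.15 in rosettes, adjusted p = 0.912 by limma), and SUFA by 0.17 (0.07 in roots and -0.10 in rosettes, adjusted p = 0.93 by limma). None of the 4 passed the threshold of the interaction test, and the doubt about the headings of the Fe-deficient rosette columns bears on each.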

How the results depend on the processing

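No member passed the threshold under any alternative that kept both libraries of each group (pseudocount, filter, trend, centring, block). The medians over the members moved by less than the replicate SD in all 36 combinations computed. That SD is built from the gaps between the same libraries, so leaving out a library could hardly move a median past it. Without 1 library the medians ran from -0.14 to 0.01 in rosettes on full medium and from -0.16 to -0.04 in Fe-deficient rosettes. The 340 values of single named members, over all alternatives, kept their direction. Most of these members were named because both IMA1 OE values lay on the same side of both EYFP OE values. For those, leaving out a library could not reverse the direction, so the count says little about how firm they are. Members with a change below 0, counted after the data were seen, numbered 15 to 27 without 1 library in rosettes on full medium and 20 to 27 in Fe-deficient rosettes. Counts over all genes moved more. Without the filter they were 143 in roots on full medium, 113 in rosettes on full medium, 130 in Fe-deficient rosettes, 136 for the tissue difference on full medium and 166 on Fe-deficient medium. Without the trend 120 genes were called in Fe-deficient roots. A pseudocount of 0.1 gave 1 gene in rosettes on full medium and 33 for the tissue difference on Fe-deficient medium. Leaving out 1 library gave 0 to 4 genes in roots on full medium, 55 to 80 in Fe-deficient roots, 0 to 10 in rosettes on full medium, 0 to 4 in Fe-deficient rosettes, and 0 to 17 and 30 to 94 for the tissue differences on full and Fe-deficient medium. The causes were not tested. The replicate numbers are shared by all groups, but nothing says that they mark a batch. The deviations of same-numbered libraries correlated with r of 0.271 and 0.24 in the root tables and 0.4 and 0.45 in the rosette tables, with 2 pairs each. The replicate block moved the counts to 16 in roots on full medium, 323 in Fe-deficient roots, 60 in rosettes on full medium and 0 for the tissue difference on full medium, and called no member. Unknown depth leaves NEET in roots and SUFE2 without an error from counting.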

Other observations

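Across rosettes, 14 of 32 tested members (43.8%) were higher in the library numbered 2 than in the library numbered 1 in all 3 groups, beside 24.4% of all tested genes, and 3 (9.38%) were lower in all 3, beside 25.0%. In roots the counts were 8 (25.0%, beside 21.2%) and 1 (beside 19.4%). The 14 in rosettes include NFS2, SUFE1, SUFC, NFU2, HCF101, GRXS14, GRXS16, ISD11, NBP35, DRE2 and AE7. GRXS14 had the widest gap of those described. The clock genes LHY and CCA1, which were chosen after their values were seen, had the same order: LHY was at 35.30 and 72.26 in IMA1 OE rosettes on full medium, 41.54 and 65.41 in Fe-deficient IMA1 OE rosettes, and 17.16 and 81.00 in EYFP OE rosettes. CCA1 was at 31.58 and 78.33 in IMA1 OE rosettes on full medium, 38.92 and 66.12 in Fe-deficient IMA1 OE rosettes, and 17.07 and 78.07 in EYFP OE rosettes. The EYFP OE values here are those of the full-medium table. In roots the order of the clock genes was the reverse of that in rosettes, with the library numbered 1 the higher in all 3 groups. LHY was at 15.98 and 15.85 in IMA1 OE roots on full medium, 15.38 and 13.80 in Fe-deficient IMA1 OE roots, and 18.04 and 14.59 in EYFP OE roots, and CCA1 at 18.17 and 16.08, 19.52 and 14.67, and 20.75 and 15.76 in the same groups. Continuous light was used throughout, per the labels' protocols, and harvest times of the libraries are not given in the sources used here. Whether the order of the members and of the clock genes is linked was not tested.

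Of the cluster-receiving proteins, and also chosen after the values were seen, the chlorophyll enzyme CAO, which carries a Rieske cluster, showed the same order between libraries in rosettes, with 88.08 and 177.32 in IMA1 OE on full medium, 98.12 and 168.37 in Fe-deficient IMA1 OE, and 69.84 and 172.89 in EYFP OE, while THIC showed the opposite order, with 268.45 and 135.39 in IMA1 OE on full medium, 262.67 and 150.57 in Fe-deficient IMA1 OE, and 320.55 and 123.25 in EYFP OE.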
